A study of Mus musculus with 24 samples.

Results

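Lysosomes are the acidic compartments in which cells digest proteins, glycans and lipids, and 41 genes that build them were followed here out of 45319 gene rows of the count table. The genes were taken by name: 3 transcription factors of the MiT/TFE family, 2 lysosome-associated membrane proteins and 1 lysosomal cation channel, 10 proteases, 7 glycosidases, 4 genes for lipid hydrolysis and its cofactors, and 14 genes of the proton pump. Each of the 41 symbols matched 1 row.

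The cells were mouse Lys-GFP-ER-HoxA9 cells on the C57Bl/6 background, a myeloid progenitor line with a lysozyme-GFP reporter and a HoxA9 protein fused to the hormone-binding part of the oestrogen receptor. In cells of this design the fusion works as long as estradiol is present and holds them immature, and its removal starts differentiation. The R07 arm held 4 libraries, 1 each at 12, 36, 72 and 120 h of treatment with R07, a compound known here by its code alone. The withdrawal arm held 20 libraries, 2 at each of 0, 4, 8, 12, 24, 36, 48, 72, 96 and 120 h after estradiol was taken away. The growth medium given for every sample held serum, stem cell factor and 0.5 µM beta-estradiol, and all groups carry the fusion and the reporter. All are 1 cell line, so no other genotype or line stands beside it. The labels give every sample the same text on estradiol removal, so they do not settle whether estradiol was present during R07. The 2 withdrawal libraries of a time are called A and B after the letters in the table.

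Hydrolases and their cofactors are made in the endoplasmic reticulum, carried to the lysosome and matured there at low pH. The vacuolar proton pump supplies that pH: its V1 sector in the cytosol splits ATP, its V0 sector in the membrane passes the protons, and accessory proteins help it assemble. TFEB, TFE3 and MITF bind a short E-box with the core CACGTG in promoters of many of these genes, a set known as the CLEAR network, and they are held in the cytosol when mTORC1 on the lysosome is active. Macrophages and their precursors are rich in lysosomes, and osteoclasts place the pump at the cell surface to dissolve bone.

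Stretches of 7 promoters that hold this E-box are printed first. They were chosen after the values were seen, for the different courses of their genes. Any part of the motif in these courses was not tested. RefSeq promoters (GRCm38.p6, 250 bases before to 50 after a start) were matched by symbol for 34 of the 41 genes. Those of Asah1, Atp6v0d2, Atp6v1b2, Atp6v1c1, Atp6v1h, Ctsb and Ctsh were not analysed here. CACGTG lay in the promoters of 13 of the 34 genes (38.2%), against 8.09% of all 27025 genes in the table (7.15% of its 32851 windows). The longer TCACGTGA, which holds the first motif, lay in 7 of the 34 (20.6%), against 1.12% of all genes. With a further G before and C after, it lay in 0 of the 34, against 0.37% of all genes. The motifs are palindromes, so a match counts on both strands. The 7 stretches follow, 5′ to 3′ on the strand of the gene, with CACGTG in capitals. Further copies outside these stretches are not shown.
Lamp1: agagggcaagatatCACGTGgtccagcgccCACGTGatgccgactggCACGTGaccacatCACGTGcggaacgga
Mcoln1: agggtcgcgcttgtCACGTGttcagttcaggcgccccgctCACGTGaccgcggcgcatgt
Ctsd: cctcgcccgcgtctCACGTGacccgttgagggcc
Lgmn: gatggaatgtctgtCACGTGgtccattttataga
Gla: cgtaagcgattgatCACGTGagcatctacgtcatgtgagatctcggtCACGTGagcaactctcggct
Glb1: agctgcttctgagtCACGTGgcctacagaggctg
Atp6v0b: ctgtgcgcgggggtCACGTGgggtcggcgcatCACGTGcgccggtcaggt
The stretches lie at chr8:13159086-13159160, plus strand (Lamp1), chr8:3500434-3500493, plus strand (Mcoln1), chr7:142387906-142387939, minus strand (Ctsd), chr12:102439122-102439155, minus strand (Lgmn), chrX:134601180-134601246, minus strand (Gla), chr9:114401016-114401049, plus strand (Glb1) and chr4:117887330-117887379, minus strand (Atp6v0b). Lamp1 has 4 copies within 75 bases upstream of its start, and Mcoln1, Gla and Atp6v0b have 2 copies each in the stretch shown. The match is a description of the letters and no measurement of binding. The 13 genes with CACGTG had a median log2 change of 2.396 at 120 h against 0 h (0.41 to 5.47), and the 21 genes with a promoter but no CACGTG had a median of 2.99 (0.89 to 10.06).

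Levels are CPM, counts per 1e6 counts of the library, with library sizes scaled by TMM factors. Changes are log2 values ± SE from edgeR's quasi-likelihood test, and calls were made at an adjusted p under 0.05, by Benjamini-Hochberg over all genes tested. Gene counts per library ran from 36.7 to 49.6 M. No label says that libraries A and B came from separate cultures, so the p-values measure the spread between these libraries, which may be technical. In bulk RNA, fewer cells of a type and less RNA per cell cannot be told apart. At 0 h the progenitor markers Cd34, Kit, Myb and Meis1 were all present, with a sum of 4528 ± 13.9 CPM (SD, n = 2). Of the 41 genes, 12 have exons that overlap those of another annotated gene, 10 of them on the opposite strand and 3 (Ctsd with Gm49369, Ctsl with Gm49230, Glb1 with Tmppe) on the same strand. The kit kept strand, but the strand setting of the counting is not given in the sources used here, so reads in the shared stretches, for example of Lamp1 with Grtp1 or Ctsz with Nelfcd, cannot be assigned with certainty.

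After withdrawal of estradiol the lysosomal genes rose as a group, slowly at first and steeply after 48 h. Together the 41 genes took 4.53 to 5.10% of all gene counts at 120 h, against 0.424 to 0.446% at 0 h. Their summed level was 4087 ± 119 CPM at 0 h, 5607 ± 17.3 at 24 h, 8128 ± 563 at 48 h, 12877 ± 856 at 72 h, 23966 ± 2043 at 96 h and 62452 ± 2869 at 120 h (SD, n = 2 each). All 41 genes passed the filter on low counts and changed at some time in the joint test of the 9 later times, as did 91.1% of all 14615 genes tested. At 120 h against 0 h all 41 were called (79.9% of all genes were), 41 higher (39.6%) and 0 lower (40.3%), and their median log2 change was 2.86, against -0.057 over all genes. Ctsh, Ctsk and Atp6v0d2 had 0, 0 and 2 counts over both 0 h libraries. They passed the filter through later libraries and could only be called higher. Glb1 depended on the scaling: its log2 change was 0.41 with TMM factors and -0.034 with total counts alone. Total counts moved the median of all genes to -0.50 and left 4465 genes called higher and 7507 lower, against 5788 and 5887 with TMM factors.

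**Figure D1:**
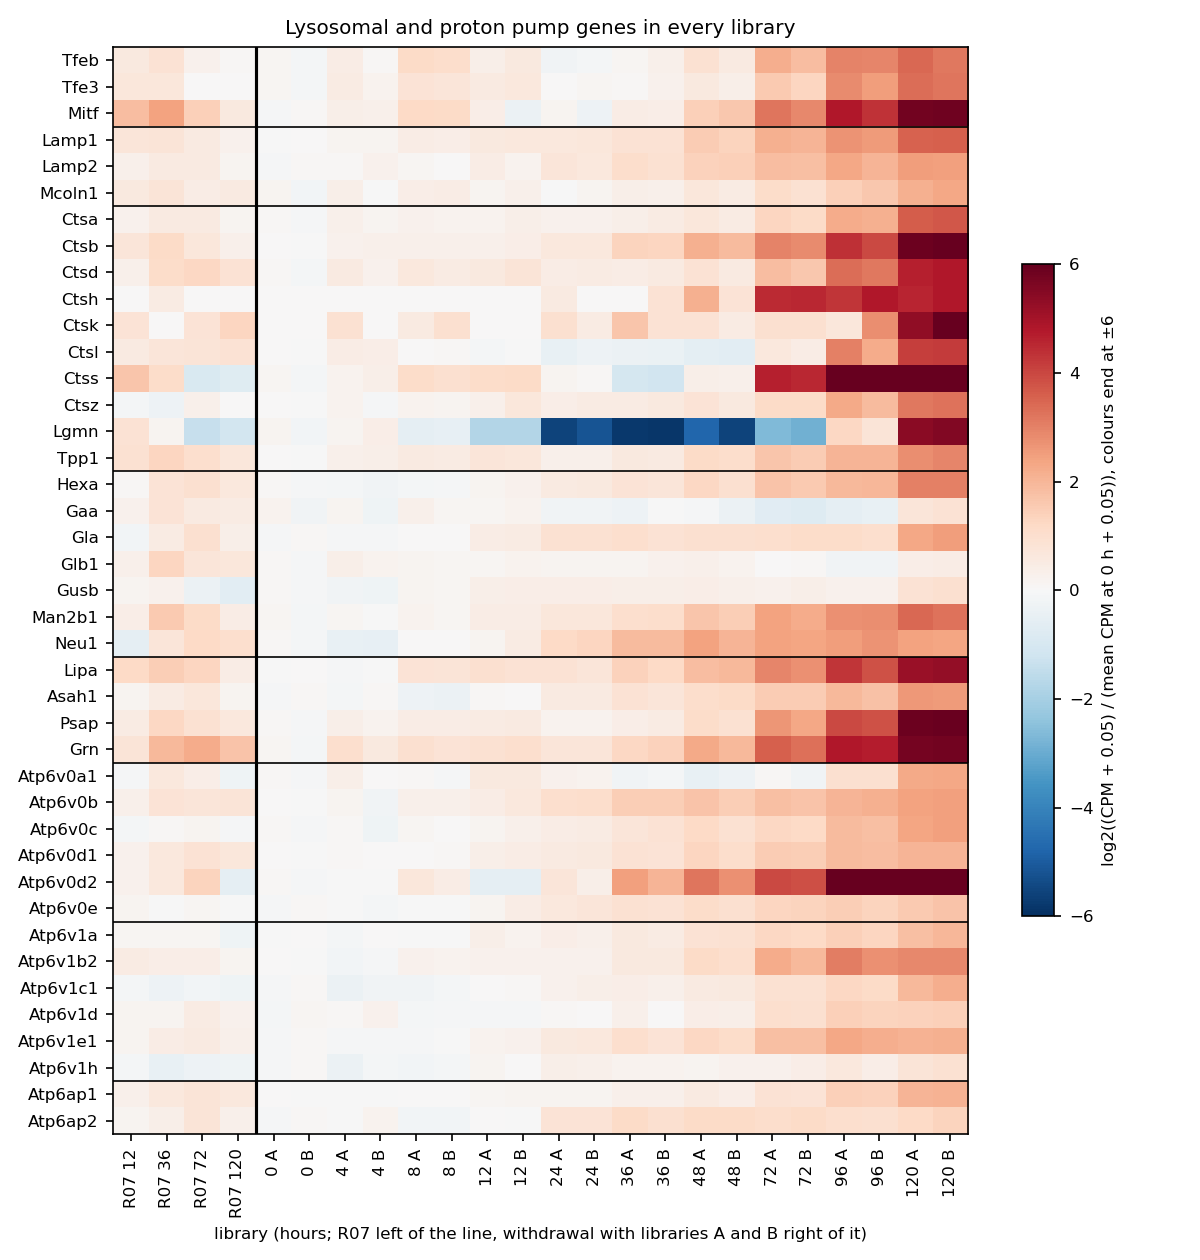
Level of each of the 41 genes (rows, grouped by role) in each library (columns: the 4 R07 libraries left of the line, the 20 withdrawal libraries right of it), as log2 of CPM + 0.05 over the mean at 0 h + 0.05. Red is above and blue below 0 h. Lgmn is deep blue from 24 to 48 h, and withdrawal columns turn red from 72 h on while R07 columns stay pale.

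The count of called genes grew with time. At 4 h it was 5 (11.8% of all genes were called), 4 higher (7.23%) and 1 lower (4.55%), and at 8 h it was 13 (21.9%), 11 higher (12.9%) and the others, Lgmn and Asah1, lower. By 12 h it was 19 (16.0%), 18 higher (9.20%) and 1 lower (6.81%). By 24 h it was 25 (27.9%), and by 36 h 29 (40.9%), 27 higher (20.6%) and 2 lower (20.3%). By 48 h it was 37 (52.6%), 34 higher (25.8%) and 3 lower (26.8%), and by 72 h 38 (69.6%), 36 higher (34.9%) and 2 lower (34.7%). By 96 h all 41 were called (77.4%), 39 higher (38.7%) and 2 lower (38.7%). At 4 and 12 h single libraries moved these counts. The 4 h count was 1 without library A at 4 h, 2 without either 0 h library, and 3 without either library at 8, 24 or 36 h. The 12 h count was 12 without library B at 0 h. The genes that were called higher from a time onwards, at that and every later time, numbered 3 from 4 h (Ctsd, Tpp1 and Grn), 2 from 8 h (Lamp1 and Lipa), 9 from 12 h, 9 from 24 h, 4 from 36 h, 6 from 48 h, 3 from 72 h, 3 from 96 h and 2 from 120 h (Gaa and Glb1). The highest mean came at 120 h for 38 genes and at 96 h for Neu1, Atp6v1b2 and Atp6v1e1.

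At 24 h against 0 h, 24 of the 41 genes were called higher (13.5% of all genes) and 1 lower (14.4% of all genes), with a median log2 change of 0.45 against 0 over all genes. Those higher were 5 of 7 glycosidases, 9 of 14 pump genes, 5 of 10 proteases, 3 of 4 lipid genes, both Lamp genes and none of the 3 transcription factors. Among called genes the largest increases were 1.23 ± 0.12 for the sialidase gene Neu1, 1.03 ± 0.11 for the V0 subunit gene Atp6v0b, 0.91 ± 0.091 for the alpha-galactosidase gene Gla and 0.81 ± 0.097 for the pump accessory gene Atp6ap2, known also as the prorenin receptor gene. The 1 gene called lower was Lgmn (-5.49 ± 0.22, adjusted p = 5.88e-14). Ctsl, at -0.37 ± 0.16, missed the threshold (adjusted p = 0.102) but was called lower without either 96 h library. Without a scaling factor the split over all genes was 1476 higher and 2744 lower, against 1972 and 2100 with TMM factors.

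The other 16 genes were not called at 24 h. They took in all 3 transcription factors, the channel gene Mcoln1, the cathepsin genes Ctsh, Ctsk, Ctsl and Ctss, and the most abundant later gene, Psap (0.20 ± 0.11, adjusted p = 0.192). The remaining 7 were Gaa, Glb1, Atp6v0a1, Atp6v0d2, Atp6v1b2, Atp6v1d and Atp6ap1. At 120 h against 24 h all 41 genes were called (79.2% of all genes), 41 higher (38.9%) and 0 lower (40.3%), with a median log2 change of 2.41, although Glb1's 0.24 became -0.12 without a scaling factor. Atp6ap2, Atp6v1h and Gusb then also lost their calls, leaving 37 genes called higher, and Glb1 lost its call without either 24 h library and with no filter on low counts. Ctsh, Ctsk and Atp6v0d2, with 0 to 3 counts in each 24 h library, could again only be called higher.

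**Figure D2:**
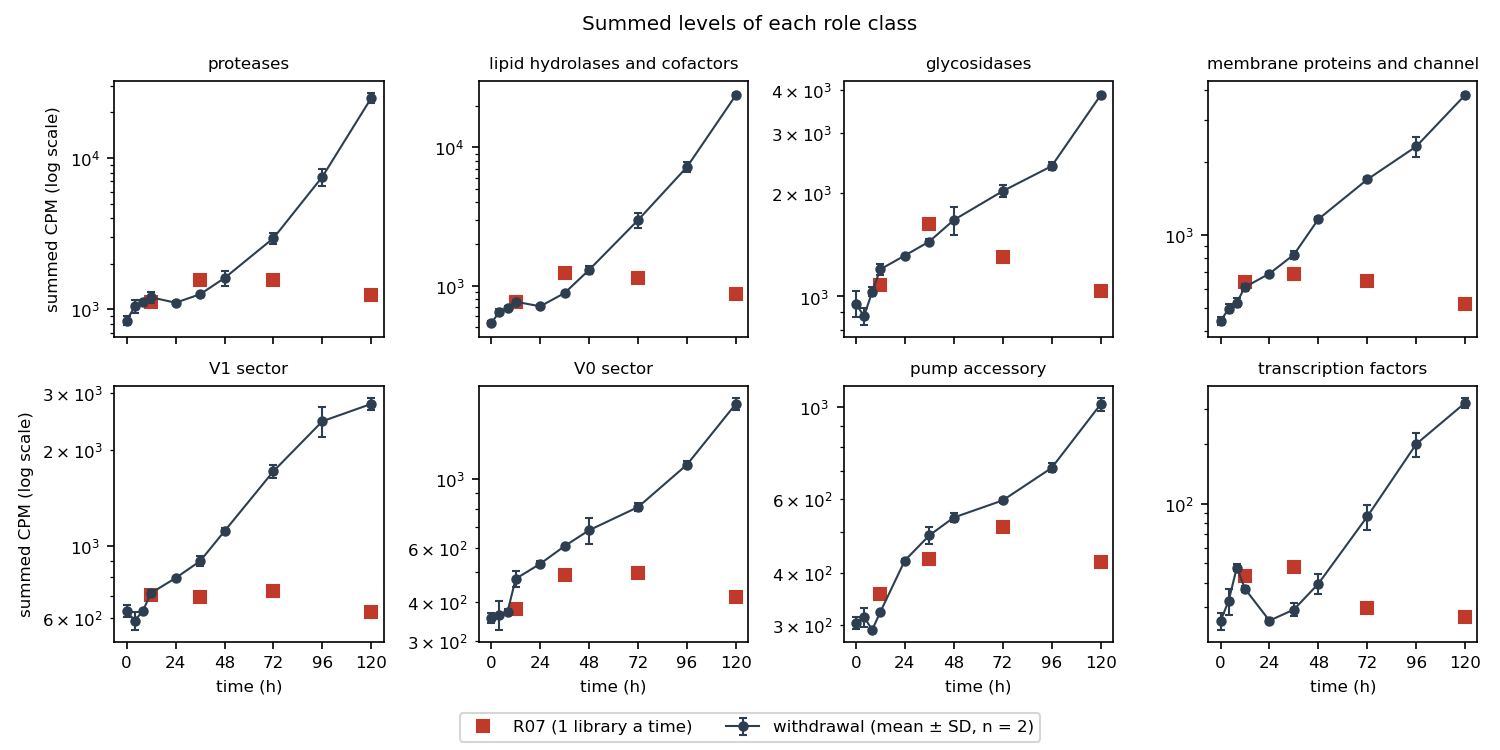
Summed CPM of each role class (log axis) against time in hours, for R07 (red squares, 1 library a time) and withdrawal (dark points, mean ± SD of 2 libraries). Proteases and lipid hydrolases climb steepest after 48 h, pump genes climb evenly, and the transcription factors have a first peak at 8 h, return by 24 h and climb again.

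The 3 transcription factor genes had 2 phases. Tfeb, the best-known driver of lysosome formation (ENSMUSG00000023990.15, mm10 chr17:47737030-47792419, plus strand), had 6.57 and 5.55 CPM in libraries A and B at 0 h, 8.22 and 6.27 at 4 h, 13.4 and 12.8 at 8 h, 7.73 and 9.03 at 12 h and 5.29 and 5.56 at 24 h. It then had 6.62 and 7.54 at 36 h, 11.5 and 8.77 at 48 h, 27.2 and 22.1 at 72 h, 48.8 and 46.5 at 96 h and 66.8 and 55.2 at 120 h. The libraries at 8, 12 and every time from 36 h on thus stood above both 0 h libraries, whereas those at 4 and 24 h overlapped with them. At 8 h against 0 h all 3 were called higher (12.9% of all genes were): Tfeb by 1.10 ± 0.16, its paralogue Tfe3 by 0.78 ± 0.13 and Mitf, which also drives pigment and osteoclast genes, by 1.19 ± 0.23. These calls held under all 26 alternatives. At 24 h their log2 changes were -0.16 ± 0.17, 0.064 ± 0.13 and -0.084 ± 0.26, and none was called.

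By 120 h the transcription factors rose again. Mitf (ENSMUSG00000035158.12, mm10 chr6:97807052-98021349, plus strand) had 83.7 and 83.7 CPM at 120 h, against 1.39 and 1.49 CPM at 0 h. Its 8 h libraries, at 3.42 and 3.23 CPM, did not overlap those at 0 h either. Tfe3 had 184 and 169.7 CPM at 120 h, against 19.4 and 16.8 CPM at 0 h. The log2 changes at 120 h were 5.83 ± 0.21 for Mitf, 3.32 ± 0.16 for Tfeb and 3.27 ± 0.14 for Tfe3 (adjusted p = 3.64e-16, 4.77e-14 and 5.19e-15). As levels per kilobase of exon, Tfe3 had 19.1 ± 1.11, Mitf 13.5 ± 0.00504 and Tfeb 10.8 ± 1.44 CPM per kb at 120 h, against 1.95 ± 0.199, 0.233 ± 0.0114 and 1.07 ± 0.127 CPM per kb at 0 h (SD, n = 2), so that Mitf passed Tfeb.

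All 3 genes of the lysosomal membrane were higher at 120 h, and each had its lowest mean at 0 h. Lamp1, a heavily glycosylated protein that lines the lysosome (ENSMUSG00000031447.6, mm10 chr8:13159161-13175338, plus strand), had 214 and 216 CPM at 0 h, 334 and 341 at 24 h, 944 and 896 at 72 h and 2479.6 and 2612 at 120 h. Both libraries at each later time from 4 h on exceeded both at 0 h, and Lamp1 was called higher from 8 h on. Its log2 change was 0.65 ± 0.088 at 24 h and 3.55 ± 0.096 at 120 h. Lamp2, its partner in the membrane and a receptor of chaperone-mediated autophagy, rose by 0.68 ± 0.11 at 24 h and 2.48 ± 0.11 at 120 h. Mcoln1, which encodes the calcium-releasing channel TRPML1, had 55.7 and 62.4 CPM at 120 h, against 13.9 and 11.03 CPM at 0 h, a rise of 2.22 ± 0.14. It was not steady: libraries A and B had 16.6 and 17.2 CPM at 8 h and 12.3 and 14.045 CPM at 24 h, where they overlapped with those at 0 h, and it was called higher from 48 h on.

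Proteases had varied courses, and all 10 were higher at 120 h, with a median log2 change of 5.09, or 4.95 with Ctsh and Ctsk set at their lower bounds. The aspartic protease gene Ctsd, the cysteine protease gene Ctsb and the carboxypeptidase genes Ctsa and Ctsz, along with Tpp1, which trims tripeptides, were already called at 24 h. Of these calls that of Ctsb held under all 26 alternatives, whereas those of Ctsd, Ctsz and Tpp1 were lost without library B at 0 h, and that of Ctsa without either library at 0, 8, 24 or 36 h. Ctsd (ENSMUSG00000007891.12, mm10 chr7:142375911-142388038, minus strand) had 9758 and 10729 CPM at 120 h, against 409.8 and 359 CPM at 0 h, and Ctsb had 6362 and 7529.5 CPM at 120 h, against 109 and 106 CPM at 0 h. Their log2 changes at 120 h were 4.72 ± 0.15 and 5.99 ± 0.14. Ctsa rose by 3.67 ± 0.11, Ctsz by 3.20 ± 0.14 and Tpp1 by 2.86 ± 0.087.

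Ctss, the protease that trims the invariant chain of class II histocompatibility molecules (ENSMUSG00000038642.7, mm10 chr3:95526786-95556403, plus strand), had an early rise, a dip and a late rise. Libraries A and B had 3.24 and 2.70 CPM at 0 h, 3.44 and 3.79 at 4 h, 6.45 and 5.83 at 8 h, 6.46 and 6.63 at 12 h and 3.38 and 3.15 at 24 h. They had 1.42 and 1.31 at 36 h, 3.77 and 3.62 at 48 h, 77.5 and 68.4 at 72 h, 509 and 332 at 96 h and 3094 and 3283 at 120 h. Its 8 and 12 h libraries lay above both 0 h libraries, its 36 h libraries below them and its libraries from 72 h on far above. The log2 change was 1.05 ± 0.18 at 8 h (adjusted p = 0.00023), -1.12 ± 0.22 at 36 h (adjusted p = 0.000274) and 10.06 ± 0.20 at 120 h (adjusted p = 1.6e-19). On the scale of CPM per kilobase of exon Ctss stood 34th of the 41 genes at 0 h and 3rd at 120 h (2348 ± 98.5 CPM per kb).

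Lgmn, which encodes the asparagine endopeptidase legumain that matures several cathepsins (ENSMUSG00000021190.11, mm10 chr12:102394084-102439813, minus strand), is given in full after its values were seen. Libraries A and B had 25.7 and 20.7 CPM at 0 h, 26.2 and 30.6 at 4 h, 16.1 and 16.7 at 8 h, 6.73 and 6.92 at 12 h and 0.437 and 0.581 at 24 h. They had 0.372 and 0.359 at 36 h, 0.804 and 0.450 at 48 h, 3.60 and 3.07 at 72 h, 55.2 and 39.8 at 96 h and 988 and 1092 at 120 h. Every library from 8 to 72 h lay below both 0 h libraries, and every library at 96 and 120 h lay above them. The log2 change was -5.98 ± 0.23 at 36 h, 1.02 ± 0.14 at 96 h and 5.47 ± 0.16 at 120 h, each called.

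Ctsl, a cysteine protease of many cell types, had a shallower dip. It had 19.0 and 18.4 CPM at 0 h, 12.6 and 12.1 at 48 h and 335 and 338 at 120 h. Its log2 change was -0.60 ± 0.16 at 48 h (adjusted p = 0.00393) and 4.15 ± 0.17 at 120 h. Ctsh and the gene of the collagen-degrading osteoclast cathepsin, Ctsk, had no read in either 0 h library. Ctsh had 41 and 39 counts in libraries A and B at 120 h, which with a floor of 3 counts over the 0 h libraries is at least 36.2-fold higher. Ctsk had 70 and 89 counts at 120 h, at least 72.0-fold higher by the same floor, which covers counting error alone. At 0.276 (Ctsh) and 1.66 (Ctsk) CPM per kb they were the lowest of the 41 genes at 120 h.

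Glycosidases rose with a median log2 change of 2.37 at 120 h, and they held the 2 smallest changes of the 41 genes, those of Glb1 and Gaa. Man2b1, the alpha-mannosidase of the lysosome, led with 1599 and 1391 CPM at 120 h, against 158 and 133 CPM at 0 h (3.34 ± 0.12). Hexa, the alpha chain of hexosaminidase, rose by 2.99 ± 0.10 and Gla by 2.396 ± 0.094. Gusb, the beta-glucuronidase gene, was already at 475 and 435 CPM at 0 h, where it ranked behind Ctsd and Psap alone per kilobase, and had 817 and 894 CPM at 120 h (0.89 ± 0.084).

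Neu1, a sialidase that also trims surface glycans (ENSMUSG00000007038.5, mm10 chr17:34931253-34935953, plus strand), fell first. It had 45.1 and 39.7 CPM at 0 h, 31.0 and 30.0 at 4 h, 42.7 and 42.6 at 8 h, 47.7 and 58.9 at 12 h and 96.7 and 102 at 24 h. It had 157 and 158 at 36 h, 229 and 173 at 48 h, 223 and 219 at 72 h, 241 and 273 at 96 h and 223 and 222 at 120 h. Neu1 was lower at 4 h (-0.48 ± 0.12, adjusted p = 0.0103) and higher from 24 h on, and the 4 h call was lost without library A at 0 h or either library at 4 h. At 72 h it had reached 99.9% of its log2 change at 120 h, against a median of 42.6% for the glycosidases.

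Glb1 and Gaa ran against the others late in the course. Glb1, the beta-galactosidase gene (ENSMUSG00000045594.9, mm10 chr9:114401076-114474898, plus strand), had 61.4 and 56.3 CPM at 0 h, 59.9 and 62.1 at 72 h, 50.3 and 51.6 at 96 h and 78.7 and 80.2 at 120 h. It was lower at 96 h (-0.23 ± 0.084, adjusted p = 0.0194) and higher at 120 h (0.41 ± 0.084, adjusted p = 0.000137), a direction that turned without a scaling factor. The 96 h call was lost without library A at 0 or 96 h, with RLE factors, with no filter on low counts and with the 2 times fitted alone. Gaa, which breaks down glycogen and is deficient in Pompe disease, had 133 and 99.6 CPM at 0 h, 73.3 and 67.7 at 72 h and 190.4 and 215 at 120 h. It was lower at 72 h (-0.73 ± 0.14) and 96 h (-0.49 ± 0.14, lost without library A at 0 h) and higher at 120 h (0.78 ± 0.14).

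**Figure D3:**
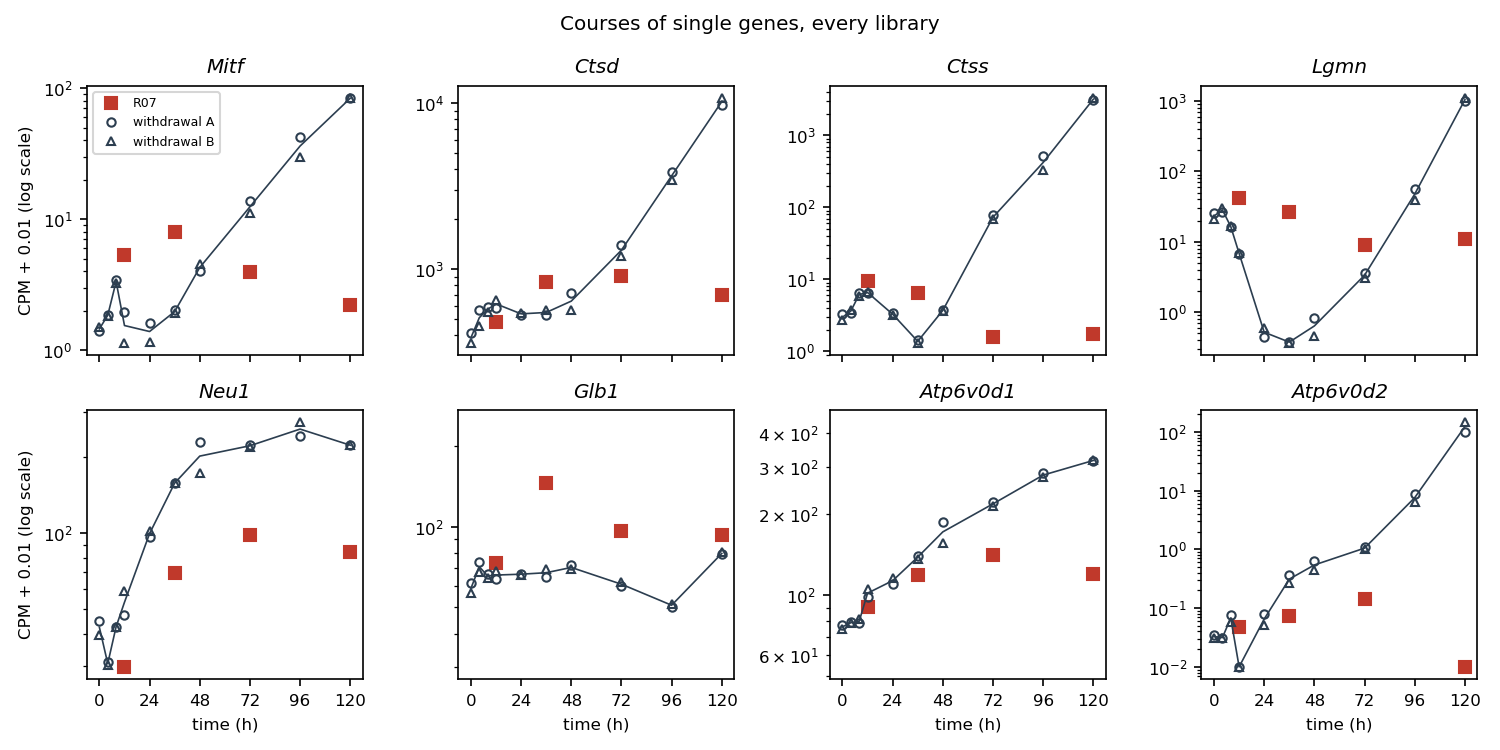
CPM plus a small constant (log axis) of 8 genes against time in hours in R07 (red squares) and withdrawal libraries A (circles) and B (triangles), with a line through the withdrawal means. Mitf has a first peak at 8 h, Lgmn drops below 1 CPM from 24 to 48 h, Neu1 flattens from 72 h, and Glb1 stays between 50.3 and 80.2 CPM in withdrawal, its change at 120 h turning sign without a scaling factor.

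Genes for lipid breakdown and its cofactors rose most as a class, with a median log2 change of 5.48. Psap encodes prosaposin, the precursor of the saposins that present sphingolipids to their hydrolases (ENSMUSG00000004207.11, mm10 chr10:60277627-60302597, plus strand). It had 326 and 294 CPM at 0 h, 357 and 359.6 at 24 h, 1920.3 and 1536 at 72 h and 18276 and 19192 at 120 h. At 120 h Psap was the highest of the 41 genes per kilobase of exon (6827 ± 236 CPM per kb), ahead of Ctsd (4357 ± 292), Ctss (2348 ± 98.5), Ctsb (1148 ± 136) and Lamp1 (952 ± 35.0). Its log2 change was 5.90 ± 0.14. Grn, which encodes the secreted and lysosomal protein progranulin, had 3008 and 3105 CPM at 120 h, against 59.5 and 51.1 CPM at 0 h, and was called higher at every time (0.80 ± 0.13 at 4 h, 5.77 ± 0.16 at 120 h). Lipa, the acid lipase that frees cholesterol from its esters, rose by 5.20 ± 0.15 and the acid ceramidase gene Asah1 by 2.55 ± 0.098 at 120 h.

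Of the 6 V0 genes 5 rose by 1.63 to 2.43 on the log2 scale at 120 h, and the osteoclast form of subunit d rose by far more. Atp6v0d1, the form found in most cells (ENSMUSG00000013160.7, mm10 chr8:105524465-105566047, minus strand), had 77.8 and 74.8 CPM at 0 h, 110.2 and 116 at 24 h, 223 and 215 at 72 h and 317 and 318 at 120 h. Its log2 change was 0.57 ± 0.087 at 24 h and 2.04 ± 0.09 at 120 h. Its paralogue Atp6v0d2, known from osteoclasts and some macrophages (ENSMUSG00000028238.6, mm10 chr4:19876841-19922605, minus strand), had 0.350 and 0.254 CPM at 36 h, 1.07 and 1.01 at 72 h, 8.66 and 6.50 at 96 h and 101 and 144 at 120 h. It had 3653 and 4191 counts at 120 h, against 1 and 1 counts at 0 h, a ratio of 5329 with a 95% counting interval of 1475 to 44013. At 120 h Atp6v0d2 was at 45.2 ± 11.3 CPM per kb and Atp6v0d1 at 177 ± 0.500 CPM per kb, so the common form still had the higher level.

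The proton-carrying ring subunits Atp6v0b and Atp6v0c had log2 changes of 2.43 ± 0.11 and 2.41 ± 0.12 at 120 h, and the small subunit gene Atp6v0e 1.63 ± 0.098. Atp6v0c had 361 and 384 CPM at 120 h, against 72.1 and 65.7 CPM at 0 h. Atp6v0a1, the proton channel subunit, was lower at 48 h (-0.39 ± 0.11, adjusted p = 0.00421, lost without library A at 0 or 48 h), was called higher from 96 h on and reached 2.28 ± 0.11 at 120 h.

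The V1 sector and the accessory genes rose by class medians of 1.96 and 1.64 on the log2 scale at 120 h. Atp6v1b2, the B subunit that completes the ATP-binding sites, led with 1169 and 1188 CPM at 120 h, against 162 and 157 CPM at 0 h (2.87 ± 0.11), and the catalytic A subunit gene Atp6v1a rose by 1.89 ± 0.093. Atp6v1e1 of the stator rose by 2.10 ± 0.094, Atp6v1c1 by 2.03 ± 0.098, Atp6v1d of the central rotor by 1.40 ± 0.10 and the regulatory subunit gene Atp6v1h by 0.82 ± 0.10. Atp6ap1, an accessory protein of pump assembly, had 665 and 675 CPM at 120 h, against 163 and 160.4 CPM at 0 h (2.03 ± 0.079). Atp6ap2 had 134 and 150.2 CPM at 0 h, 251 and 248 at 24 h and 323 and 364 at 120 h (1.25 ± 0.098 at 120 h). At 24 h, the classes had reached a median of -1.44% (transcription factors), 10.1% (proteases), 13.9% (lipid genes), 16.6% (V1), 18.2% (membrane), 23.8% (V0), 35.5% (accessory) and 37.9% (glycosidases) of their log2 change at 120 h.

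**Figure D4:**
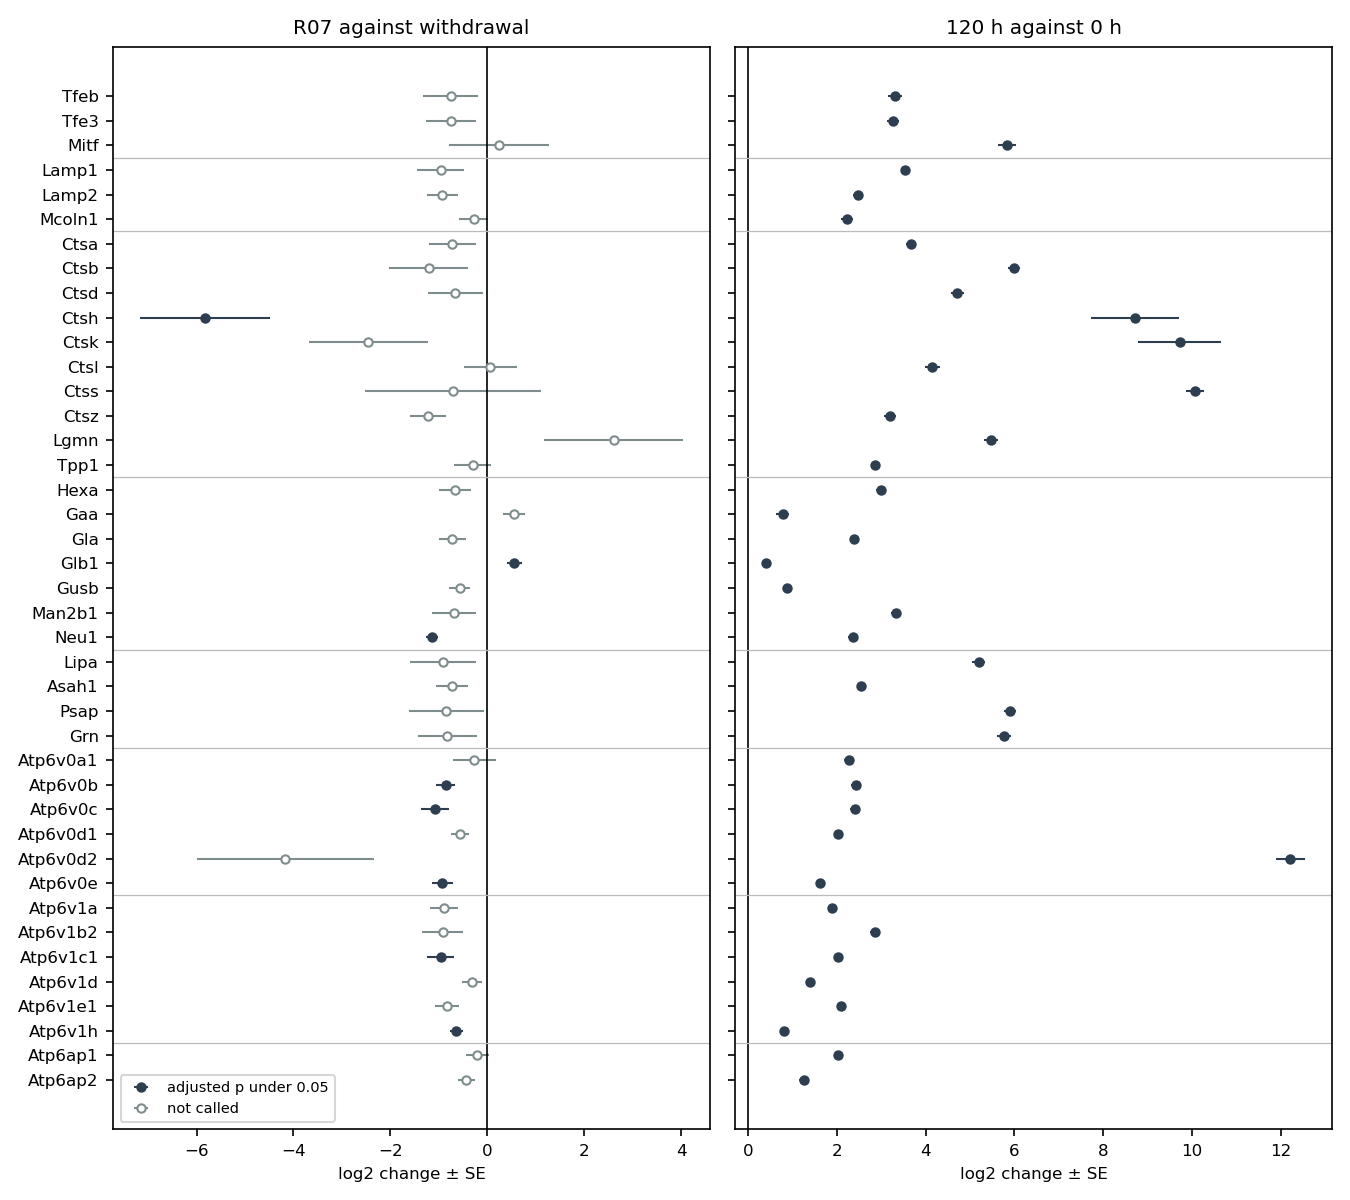
Log2 change ± SE of each of the 41 genes for R07 against withdrawal over the 4 shared times (left) and 120 h against 0 h of withdrawal (right), with filled points for genes called at an adjusted p under 0.05. On the left 7 genes are called lower and 1 higher (Glb1), and on the right all 41 lie above 0, though Glb1 did not without a scaling factor.

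Other genes of the pathway mostly rose at 120 h against 0 h. Their lists, like the 41, were chosen with earlier results of these data known. Counts in these lists are to be read against 39.6% of all genes higher and 40.3% lower. Among other hydrolases and cofactors 29 of 32 tested were higher and 2 lower, with a median log2 change of 2.18. The aspartic protease gene Ctse (8.17 ± 0.25), the heparan sulfamidase gene Sgsh (4.59 ± 0.21) and Ctsc, which activates granule serine proteases (4.42 ± 0.17), rose most, and the beta-mannosidase gene Manba (-0.35 ± 0.081) fell. Ctsw, a cathepsin of cytotoxic lymphocytes, also fell, with 0 counts at 120 h against 49 counts at 0 h, at least 12.0-fold lower by a floor of 3 counts over the 120 h libraries. Among other lysosomal membrane genes 18 of 21 were higher and 2 lower (median 1.99). The macrophage glycoprotein gene Cd68 (6.61 ± 0.14), Hgsnat, which acetylates heparan sulfate (4.60 ± 0.12), and Cln3, the gene of juvenile Batten disease (3.74 ± 0.15), led, and Lamp3 (-1.46 ± 0.57) and the channel gene Tpcn1 (-0.44 ± 0.12) fell. Lamp3 was near the floor, with a mean log2 CPM of -1.90 over withdrawal.

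Among other pump subunits and assembly factors 7 of 11 tested were higher and 1 lower (median 0.71). Dmxl2 (5.27 ± 0.16) and Wdr7 (2.20 ± 0.11), which help V1 join V0, and Tcirg1, the V0 a3 subunit of osteoclasts (3.57 ± 0.16), rose most, and Ccdc115 fell (-0.78 ± 0.098). Of 12 genes that sort lysosomal enzymes 8 were higher and 1 lower (median 0.70). The enzyme receptor gene Sort1 rose (2.91 ± 0.13), as did Cln8 (3.78 ± 0.13) and Sumf1, which activates sulfatases (1.61 ± 0.086), while Gnptab, which makes the mannose 6-phosphate tag, fell (-2.06 ± 0.1).

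Of 15 regulators of the MiT/TFE factors 12 were higher and 3 lower (median 0.75). Fnip2 (3.35 ± 0.12) and Fnip1 (2.25 ± 0.12), partners of folliculin, and Lamtor1, which anchors mTORC1 signalling on the lysosome (2.11 ± 0.12), rose, and Rragb (-3.71 ± 0.21), Rptor (-0.65 ± 0.10) and Mtor (-0.39 ± 0.11) fell. Of 20 autophagy genes 16 were higher and 1 lower (median 1.04), led by Atg7 (2.68 ± 0.11), Map1lc3a (2.57 ± 0.18) and Gabarap (2.43 ± 0.095), with Wipi2 lower (-0.39 ± 0.084). Of 7 cystatins, which inhibit cathepsins, 6 were higher and 1 lower. The highest were Stfa3, Stfa2 and Stfa2l1, near-identical copies that the counting could split, so their values of 12.998 ± 0.41, 12.75 ± 0.43 and 12.26 ± 0.41 are uncertain, and Cst7 fell (-2.39 ± 0.15).

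Markers of mature myeloid cells moved over the same hours. Counts called among them are to be read against 39.6% of all genes higher and 40.3% lower at 120 h against 0 h. The 12 macrophage markers summed to 8798 ± 535 CPM at 120 h (8420.4 to 9176), against 9.85 ± 0.587 CPM at 0 h (9.43 to 10.3), and 11 of the 11 tested were called higher. Marco had no read at either time. At 0 h 3 of the 12 markers, Marco among them, had no read. Those of them that were tested passed the filter through later libraries and could only be called higher. The 8 markers of secondary granules and mature neutrophils summed to 24569 ± 5092 CPM at 120 h, against 25.1 ± 1.27 CPM at 0 h, with 8 of 8 higher. Their mean sum was highest at 96 h, with 31883 ± 5355 CPM. The 6 monocyte markers summed to 3064 ± 167 CPM at 120 h, against 1472 ± 50.4 CPM at 0 h, with 5 higher and 1 lower. The 4 progenitor markers summed to 116 ± 9.22 CPM at 120 h, against 4528 ± 13.9 CPM at 0 h, and the 5 primary granule markers to 236 ± 63.7 CPM at 120 h, against 5815 ± 109.8 CPM at 0 h. The primary granule sum first rose, to 14549 ± 592 CPM at 36 h. Of its 5 genes 3 were lower at 120 h and 2 were not called.

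The 9 eosinophil markers summed to 186 ± 15.6 CPM at 120 h, against 34.7 ± 0.95 CPM at 0 h, but stood at 2292 ± 329 CPM at 48 h. The 7 osteoclast markers summed to 2046 ± 618 CPM at 120 h, against 42.5 ± 1.82 CPM at 0 h. Of that sum Mmp9, also a neutrophil gene, held 1944 ± 601 CPM at 120 h. The osteoclast fusion genes Dcstamp (0.293 ± 0.219 CPM) and Ocstamp (0.0932 ± 0.0144 CPM) were near 0 at 120 h, Calcr had no read, and Acp5 was not called. The 6 dendritic cell markers summed to 581 ± 28.4 CPM at 120 h and 315 ± 31.8 CPM at 0 h, the 8 of mast cells and basophils to 46.8 ± 1.30 and 338 ± 24.5 CPM, and the 6 of B cells to 86.4 ± 4.20 and 179 ± 6.97 CPM at the same times. These 3 sums join genes that went opposite ways. Of 4 dendritic genes tested 3 were higher (Cd74 by 12.95 ± 0.56) and Flt3 was lower (-5.30 ± 0.20). The dendritic sum was 2.34 ± 0.288 CPM at 48 h. Of 6 B cell genes Cd79b was higher (0.97 ± 0.11) and 4 were lower. Of 5 mast cell and basophil genes tested Hdc was higher and 4 were lower. The part of these cell types in the lysosomal changes was not tested.

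The R07 libraries lacked the late rise. At 120 h the summed level of the 41 genes was 5162 CPM in the R07 library, against 60423 and 64481 CPM in withdrawal libraries A and B. Over time the R07 sum was 5093 CPM at 12 h, 6799 at 36 h, 6432 at 72 h and 5162 at 120 h, or 0.549, 0.748, 0.715 and 0.574% of gene counts. These are single libraries, so no test was made within a time. The macrophage marker sum, at 13.2, 71.8, 204 and 204 CPM at these times in R07, lay under that of withdrawal at 12, 72 and 120 h (23.4 ± 0.376, 604 ± 71.6 and 8798 ± 535 CPM) and over it at 36 h (63.1 ± 2.22 CPM). At 120 h the markers of secondary granules and mature neutrophils summed to 145 CPM in R07, against 24569 ± 5092 CPM in withdrawal. At the same time the progenitor markers summed to 4429 CPM in R07, against 116 ± 9.22 CPM in withdrawal, and the primary granule markers to 7166 CPM in R07, against 236 ± 63.7 CPM in withdrawal. The primary granule sum in R07 lay below withdrawal at 12 h (4838 against 7994 ± 908 CPM) and 36 h (11719 against 14549 ± 592 CPM). It lay above at 72 h (9188 against 6479 ± 874 CPM). The monocyte sum in R07 lay above withdrawal at 12, 36 and 72 h (2271 against 623.5 ± 34.3 CPM at 36 h). It lay below at 120 h (1960 against 3064 ± 167 CPM). Over the 4 shared times 1 of the 6 monocyte markers was called higher (10.2% of all genes) and 0 lower (6.37%). Their median log2 change was -0.96 (-3.63 to 4.18), so the sum does not stand for each marker. At 120 h the mast cell and basophil, dendritic and B cell sums in R07 (1043, 952 and 226 CPM) lay above withdrawal. The osteoclast and eosinophil sums (70.6 and 130 CPM) lay below it. The first 3 of these sums join genes that went opposite ways in withdrawal, so they may rest on different genes in the 2 arms. In R07 at 120 h 3 of the 6 dendritic and 3 of the 8 mast cell and basophil markers had no read. The part of these cell types in the difference was not tested.

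Against the withdrawal libraries of the same hour, the R07 levels split evenly early and fell behind later. Counts were made over the 39 of the 41 genes with a mean of at least 1 CPM, leaving out Ctsh and Ctsk. At 12 h R07 was below both withdrawal libraries for 17 genes (40.2% of all genes) and above both for 19 (42.4%), whereas at 36 h it was below both for 19 (46.9%) and above both for 19 (45.1%). At 72 h R07 was below both for 34 (46.8%) and above both for 5 (45.0%), namely Ctsl, Lgmn, Gaa, Glb1 and Atp6v0a1. At 120 h it was below both for 38 (46.3%) and above both for Glb1 alone (1 gene, against 50.0% of all genes). The median log2 difference was -0.014 at 12 h, 0.0045 at 36 h, -1.03 at 72 h and -2.39 at 120 h.

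In the fit over the 4 shared times, 7 of the 41 genes were lower in R07 than in withdrawal (6.37% of all 14511 genes tested) and 1 was higher (10.2%), with a median log2 change of -0.73 against 0.054 over all genes. That spread holds any change of the difference with time, and the 33 other genes were not called. The 7 were 3 V0 genes (Atp6v0b -0.86 ± 0.20, Atp6v0c -1.08 ± 0.29 and Atp6v0e -0.93 ± 0.22), 2 V1 genes (Atp6v1c1 -0.96 ± 0.29 and Atp6v1h -0.64 ± 0.14), Neu1 (-1.14 ± 0.12) and Ctsh (-5.82 ± 1.34). Ctsh, with 0, 1, 0 and 0 counts in the R07 libraries, passed the filter through withdrawal libraries and could only be called lower. The count lower was 1 without R07 at 72 h, 2 without withdrawal library A or B at 72 h, 4 without A or B at 120 h or B at 36 h, and 15 without R07 at 12 h. Atp6v0b and Atp6v0e lost their calls without A, B or R07 at 72 h, and Atp6v1h without R07 at 72 h. DESeq2 called 12 lower. Without a scaling factor the split over all genes was 2256 higher and 670 lower, against 1479 and 925.

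Neu1 kept its call under all 17 alternatives. R07 had 29.6 CPM at 12 h, 69.5 at 36 h, 98.4 at 72 h and 84.4 at 120 h, against 47.7 and 58.9 CPM at 12 h, 157 and 158 at 36 h, 223 and 219 at 72 h and 223 and 222 at 120 h in withdrawal libraries A and B. R07 was below both withdrawal libraries at each of the 4 times (adjusted p = 0.00105). Among pump genes Atp6v0c had 62.8 CPM at 12 h, 71.2 at 36 h, 76.9 at 72 h and 66.2 at 120 h in R07, against 76.7 and 85.3 CPM at 12 h, 113 and 124 at 36 h, 165 and 156 at 72 h and 361 and 384 at 120 h in withdrawal. The R07 values stayed within 62.8 to 76.9 CPM, below every withdrawal value at these hours except that at 12 h library A had 76.7 CPM, under R07 at 72 h (adjusted p = 0.0353). The call was lost without A or B at 36, 72 or 120 h, B at 12 h or R07 at 72 h.

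Atp6v1c1 had 64.6 CPM at 12 h, 57.9 at 36 h, 61.9 at 72 h and 59.7 at 120 h in R07, against 71.6 and 73.1 CPM at 12 h, 93.1 and 85.7 at 36 h, 131 and 133 at 72 h and 271 and 315 at 120 h in withdrawal. All 4 R07 values lay under all 8 withdrawal values, and also under both 0 h libraries (adjusted p = 0.0493). The call was lost without any 1 of the 8 withdrawal libraries, without R07 at 36 or 72 h, with RLE factors and with no filter on low counts. Ctsh had 0, 1, 0 and 0 counts in R07 at 12, 36, 72 and 120 h, against 0 and 0 counts at 12 h, 0 and 2 at 36 h, 43 and 46 at 72 h and 41 and 39 at 120 h in withdrawal, so its call rests on the last pair of times. Over the 4 times these are 1 count in R07 against 171 counts in withdrawal, a ratio of 0.00978 with a 95% counting interval of 0.000246 to 0.0552, and the call was lost without A or B at 72 or 120 h, B at 36 h or R07 at 72 h.

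Glb1 was the 1 gene higher in R07, with 73.0 CPM at 12 h, 146 at 36 h, 96.4 at 72 h and 93.2 at 120 h, against 63.7 and 68.3 CPM at 12 h, 65.0 and 69.6 at 36 h, 59.9 and 62.1 at 72 h and 78.7 and 80.2 at 120 h in withdrawal. R07 was above both withdrawal libraries at every one of the 4 times (0.56 ± 0.15, adjusted p = 0.0357). The call was lost without withdrawal library A or B at 36, 72 or 120 h, library A at 12 h, or R07 at 36 or 72 h, and with no filter on low counts. With total counts alone or DESeq2, 2 of the 41 genes were higher, and without R07 at 120 h, 4 of the 41 genes were called higher. These counts are to be read against 10.2% of all genes higher in the main fit. Total counts alone and DESeq2 each called more of all genes higher than that fit.

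The most abundant late genes stood far lower in R07 at 120 h. Psap had 435 CPM at 12 h, 739 at 36 h, 579 at 72 h and 486 at 120 h in R07, against 18276 and 19192 CPM in withdrawal at 120 h. Ctsd had 481 CPM at 12 h, 832 at 36 h, 901 at 72 h and 699.8 at 120 h in R07, against 9758 and 10729 CPM in withdrawal at 120 h, and Lamp1 had 357 CPM at 12 h, 362 at 36 h, 317 at 72 h and 261 at 120 h in R07, against 2479.6 and 2612 CPM in withdrawal at 120 h. None of the 3 was called over the 4 times (-0.85 ± 0.78, -0.66 ± 0.56 and -0.96 ± 0.48).

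Several genes with large differences at single times were not called over the 4 times. Lgmn had 42.3 CPM at 12 h, 26.1 at 36 h, 8.87 at 72 h and 10.9 at 120 h in R07, against 6.73 and 6.92 CPM at 12 h, 0.372 and 0.359 at 36 h, 3.60 and 3.07 at 72 h and 988 and 1092 at 120 h in withdrawal. R07 was above withdrawal at the first 3 times and below it at 120 h (2.61 ± 1.43, adjusted p = 0.232). Ctss had 9.44 CPM at 12 h, 6.43 at 36 h, 1.57 at 72 h and 1.75 at 120 h in R07, against 6.46 and 6.63 CPM at 12 h, 1.42 and 1.31 at 36 h, 77.5 and 68.4 at 72 h and 3094 and 3283 at 120 h in withdrawal (-0.71 ± 1.82, adjusted p = 0.807). Mitf likewise had 5.26 CPM at 12 h, 7.91 at 36 h, 3.94 at 72 h and 2.20 at 120 h in R07, above both withdrawal libraries at 12 and 36 h (1.93 and 1.13 CPM, then 2.01 and 1.90 CPM) and below both at 72 and 120 h (13.8 and 11.1 CPM, then 83.7 and 83.7 CPM). Atp6v0d2 had 2, 3, 7 and 0 counts in R07 at 12, 36, 72 and 120 h, against 3653 and 4191 counts in withdrawal at 120 h.

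Set against the cells at 0 h, most R07 levels lay above. Of the 39 genes, R07 at 12 h was above both 0 h libraries for 31 (45.8% of all genes), and below both for 6 (38.7%). R07 at 36 h was above both for 34 (47.8%) and below both for 3 (41.4%), and R07 at 72 h for 33 (47.1%) and 5 (42.9%). At 120 h R07 was above both for 26 (46.1%) and below both for 8 (43.5%). The progranulin gene Grn had 93.0 CPM at 12 h, 210.2 at 36 h, 260.0 at 72 h and 182 at 120 h in R07, against 59.5 and 51.1 CPM at 0 h, and Man2b1 had 191 CPM at 12 h, 432 at 36 h, 319.8 at 72 h and 199.6 at 120 h, against 158 and 133 CPM at 0 h. In the test of the 4 R07 libraries against the 2 at 0 h, edgeR called 0 of the 38 genes tested (0.00% of 13704 genes), with 17 of the 38 and 2840 of all genes at an unadjusted p under 0.05. Ctsh, Ctsk and Atp6v0d2 did not pass the filter. DESeq2 called 7 of these genes, all higher in R07, and 1242 of all genes. Without R07 at 12 h edgeR called 12, all higher in R07, and 2251 of all genes.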

How the data were processed

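Reads per gene were measured by RNA-seq of oligo-dT selected, strand-marked libraries. The authors deposited 1 table of raw counts per gene for all 24 libraries, made with STAR 2.4.2a and Picard on mm10 per the submitters' processing notes; the counting program, its strand setting and its annotation are not given in the sources used here. Of 45323 lines 4 name no gene and were left out, so that 82.7 to 85.7% of reads lay in genes. The tests were run in R 4.3.3 with edgeR 4.0.16 (TMM factors, filterByExpr, robust quasi-likelihood fit, Benjamini-Hochberg adjustment over all genes) and checked on simulated counts. The simulation changed few genes, up and down alike, so it does not cover the scaling where most genes changed, as at 120 h. Withdrawal was fitted with time as a factor over its 20 libraries. R07 was fitted against withdrawal with time as a factor over the 12 libraries of 12, 36, 72 and 120 h, and against 0 h with 4 and 2 libraries. Alternatives were RLE factors, no scaling factor, no filter, DESeq2 1.42.0, pairs of times alone, each library left out, R07 at 36 to 120 h alone, and, added after seeing the data, a block on the column letter. Gene names, strands and exon lengths come from GENCODE vM21 on mm10. Levels per kilobase divide CPM by the exon union. The genes and lists were chosen with earlier results of these data known. Values per library are given for the genes with the largest called change in each class, up and down, at 120 h against 0 h and in R07 against withdrawal, for Tfeb, Tfe3, Mitf, Lamp1, Atp6v0d1 and Atp6v0d2 in any case, and for a few others chosen after their values were seen, namely Lgmn, Ctsd, Ctsb, Ctsl, Gaa, Gusb, Mcoln1, Grn and Atp6ap2.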

Additional observations from a re-analysis of the deposited data

Results flagged for a closer look

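In 14 cases the R07 library lay on the other side of the 0 h level from both withdrawal libraries of the same hour. The log2 difference was at least 1, and both 0 h libraries had at least 1 CPM, which left out Atp6v0d2 at 120 h (-11.26). The matching share of all genes was not counted, so the number of cases is no result about these genes. Each case rests on 1 R07 library, and the difference was not tested. As log2 of R07 minus withdrawal, Lgmn had 2.62 at 12 h, 5.98 at 36 h and -6.58 at 120 h. Ctss had 2.19 at 36 h, -5.50 at 72 h and -10.79 at 120 h. Ctsl had 1.09 at 36 h and Gaa 1.25 at 72 h. A positive difference has R07 above and withdrawal below 0 h, and a negative one the reverse.

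At 120 h the glucuronidase gene Gusb had -1.54, and 4 pump genes had negative differences too. These were Atp6v0a1 with -2.56, Atp6v1a with -2.19, Atp6v1c1 with -2.29 and Atp6v1h with -1.09. Atp6v1c1 also had -1.09 at 72 h.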

How the results depend on the processing

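At 120 h against 0 h, 41 genes were called higher under every alternative except total counts without a scaling factor, where 40 were. The count at 4 h, 5 as reported, was 3 without a scaling factor and 2 with the pair of times alone, and 1 to 6 with a library left out. That at 12 h, 19, was 12 to 21 with a library left out. Genes lower at 24 h, 1, were 2 without a scaling factor, with no filter and with the pair of times alone, and 1 to 2 with a library left out. In R07 against withdrawal, the 1 higher was 2 without a scaling factor, 0 with no filter, 2 by DESeq2 and 0 to 4 with a library left out. The 7 lower were 12 by DESeq2, 12 with 12 h left out of both arms and 1 to 15 with a library left out. In R07 against 0 h, the 0 higher were 7 by DESeq2, 12 with R07 at 12 h left out and 0 to 12 with a library left out.

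Changes of genes that turned sign were as follows, and the cause was not tested. At 24 h without a scaling factor Tfe3 had -0.022, Mcoln1 -0.0086 and Atp6v1d -0.037. With a library left out at 24 h, Tfe3 ran from -0.033 to 0.17, Mcoln1 from -0.080 to 0.25, Atp6v1d from -0.060 to 0.17 and Mitf from -0.34 to 0.16. Glb1 without a scaling factor had -0.034 at 120 h against 0 h and -0.12 at 120 h against 24 h. In R07 against withdrawal with 12 h left out, Mitf had -0.76 and Ctsl -0.19. With a library left out, Mitf ran from -0.90 to 1.04, Ctsl from -0.40 to 0.66, Ctss from -3.47 to 0.33, Mcoln1 from -0.56 to 0.092, Tpp1 from -0.73 to 0.15, Atp6v0a1 from -0.72 to 0.24 and Atp6ap1 from -0.41 to 0.12. The lowest came without R07 at 36 h and the highest without R07 at 120 h, except for Ctss, whose highest came without R07 at 72 h.

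Over all genes DESeq2 called 2442 higher and 1588 lower in R07 against withdrawal, where edgeR called 1479 and 925. In R07 against 0 h edgeR called 0, or 7 higher with no filter and 1360 higher and 891 lower without R07 at 12 h, and DESeq2 called 987 and 255. With a library left out, where the remaining one is assumed to vary like the other times, the counts over all genes were 816 to 1895 at 4 h (1722 with all), 1490 to 3435 at 8 h (3203), 1462 to 2527 at 12 h (2340), 1279 to 2096 higher (1972) and 1337 to 2206 lower (2100) at 24 h, and 607 to 2271 higher and 361 to 1643 lower in R07 against withdrawal. Without a scaling factor 4580 genes were higher and 7189 lower at 120 h against 24 h, where TMM factors gave 5691 and 5886. The labels number the replicates and the columns carry letters, so a fit on the labels' numbers was not run. Across the 45 pairs of times the A minus B differences had correlations of -0.49 to 0.55 (median 0.079, 19 over 0.1), so the letters were not taken as pairs. A replicate block on the letter gave 6 genes called at 4 h, 21 at 12 h and 41 higher at 120 h, and moved no member count by over 1.5 times. No paired analysis was possible for R07 because it has 1 library a time.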

Other observations

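Other genes of the pathway were called between R07 and withdrawal at shares to be read against 16.6% of all genes (10.2% higher and 6.37% lower). Over the 4 shared times 1 of 32 other hydrolases was higher and 1 lower in R07, 0 of 21 other membrane genes were called, 1 of 11 other pump genes was lower, and 1 of 12 sorting genes was higher and 1 lower. Tcirg1, the a3 subunit of the pump in osteoclasts, had a log2 change of -1.46 ± 0.31, the intracellular enzyme receptor gene M6pr -0.50 ± 0.13, and Igf2r, the larger mannose 6-phosphate receptor, 3.63 ± 1.02. Among the hydrolases Ctse was lower (-3.33 ± 0.84) and Ctsw higher (2.96 ± 0.77). Ctsw was near the floor, with 49 counts over the 0 h libraries and 0 over the 120 h withdrawal libraries.

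Of 15 regulators of the MiT/TFE factors 3 were lower and 1 higher in R07. Tfec, the remaining member of the factor family, was lower (-1.51 ± 0.31), as were Lamtor3 (-0.52 ± 0.12) and Lamtor4 (-0.55 ± 0.16) of the Ragulator complex, and the mTORC1 subunit gene Rptor was higher (0.69 ± 0.14). Of 20 autophagy genes Atg9a, Atg3 (-0.63 ± 0.16) and Atg7 (-1.24 ± 0.23) were lower and Wipi1 was higher (1.28 ± 0.17). None of the 7 cystatins tested was called.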
